A study of Arabidopsis thaliana with 6 samples.

Results

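The genes described here are 45 nuclear genes of *Arabidopsis* that encode the light-harvesting antenna, the photosystems and Rubisco. They were listed by locus, under a rule that uses no measured value, as 20 antenna genes, 12 genes for subunits of photosystem I, 9 for subunits of photosystem II and 4 for the small subunit of Rubisco. All 45 were on the array, and together they had 151 of its 43603 probes, which read 25433 named genes in all. In the thylakoid membrane, chlorophyll-binding LHCA and LHCB proteins collect light for photosystem I and photosystem II, which move electrons from water to ferredoxin. Rubisco then fixes carbon dioxide in the stroma. The chloroplast genome encodes the core of both photosystems and the large subunit of Rubisco, so the genes studied here report on the nuclear side of the apparatus. Their transcripts are among the most abundant in green tissue and respond to light, to the circadian clock, to signals from the chloroplast and to the GLK transcription factors.

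The study asked which genes differ between plants that overexpress the rice bHLH factor OsbHLH068 and Col-0, the wild-type ecotype. There were 3 arrays of OsbHLH068OE, a transgenic line in Col-0 in which the 35S promoter, active in most tissues, drives the rice gene, and 3 arrays of Col-0, which carries no transgene. All arrays held RNA from aerial tissue of 17-day-old plants, described as biological repeats, and a single transgenic line was hybridized, so the line and the transgene cannot be told apart. The arrays came from 2 slides that each carried both groups, replicate 1 on the first and the other replicates on the second, and the methods state that labeled cRNA was pooled without saying what was combined. The paper reports that the overexpressing lines flower later than the wild type. Developmental stage at harvest may therefore also differ between the groups, and its part in any difference given here was not tested. No probe was named after a rice gene, so no value of the transgene is given.

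Each value below is a log2 normalized signal of 1 probe, and a difference is OsbHLH068OE minus Col-0 on the log2 scale. The median spot signal was 284 to 322 intensity units in the OsbHLH068OE arrays and 311 to 356 in the Col-0 arrays, and 70.9% to 74.0% of probe spots were well above background on each array. All 151 probes of the photosynthesis genes were well above background on all 6 arrays and 0 spots were saturated. Among these genes the brightest spot reached 34.7% to 44.1% of the value at which the scanner saturates. Of 22 probes for 6 leaf genes, all were above background on all arrays. Of 9 probes for 7 root genes, 1 was above background on all arrays and 4 on none. With RNA from whole shoots, fewer cells of a type and less RNA per cell cannot be told apart. Levels of different genes were not compared, since each probe has its own brightness.

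The photosynthesis genes as a group differed little between OsbHLH068OE and Col-0. With limma, 0 of the 151 probes had an adjusted P under 0.05, where 0.527% of all probes did, and the lowest adjusted P among them was 0.115. At an unadjusted P under 0.05, 7 probes of 6 genes were higher in OsbHLH068OE and 0 were lower, which is 4.64% of the 151 against 19.8% of all probes (10.9% higher and 8.89% lower). This share varied with brightness. At a mean log2 signal of 16 or more it was 0.99% of the photosynthesis probes and 4.86% of other probes. At 14 to 16 it was 16.7% and 16.6%, and at 12 to 14, 8.33% and 23.6%. None of the 151 probes met the study's own rule for a differentially expressed probe, a log2 difference above 1 or below −1 with an unadjusted P under 0.05, and 1.17% of all probes did. The values of the 3 OsbHLH068OE arrays lay wholly above those of the 3 Col-0 arrays for 18 probes and wholly below for 3, against 14.7% and 12.3% of all probes. With 3 arrays a group, an exact two-sided permutation test of a single probe cannot give a P below 0.1.

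The differences of the 151 probes ran from −0.25 to 0.57 around a median of 0.03, beside a median of 0.02 over all probes. The photosystem I genes had a median of 0.06 with 21 of 28 probes above 0, the photosystem II genes 0.05 with 18 of 27, the antenna genes 0.04 with 48 of 70, and the Rubisco genes −0.01 with 10 of 26. The 95% confidence interval of the difference lay within −0.5 and 0.5 for 139 probes (92.1%, against 46.5% of all probes) and within −1 and 1 for all 151 (100%, against 85.9%). A log2 difference of 1 in either direction was thus outside the interval of each of these probes, and a P-value that missed the threshold does not show that smaller differences were absent. The share of intervals within −0.5 and 0.5 also went with brightness. Among other probes it was 28.6% under a mean signal of 8, 75.3% at 14 to 16 and 92.4% at 16 or more. Among the photosynthesis probes it was 90% at 14 to 16 and 96% at 16 or more.

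**Figure D1:**
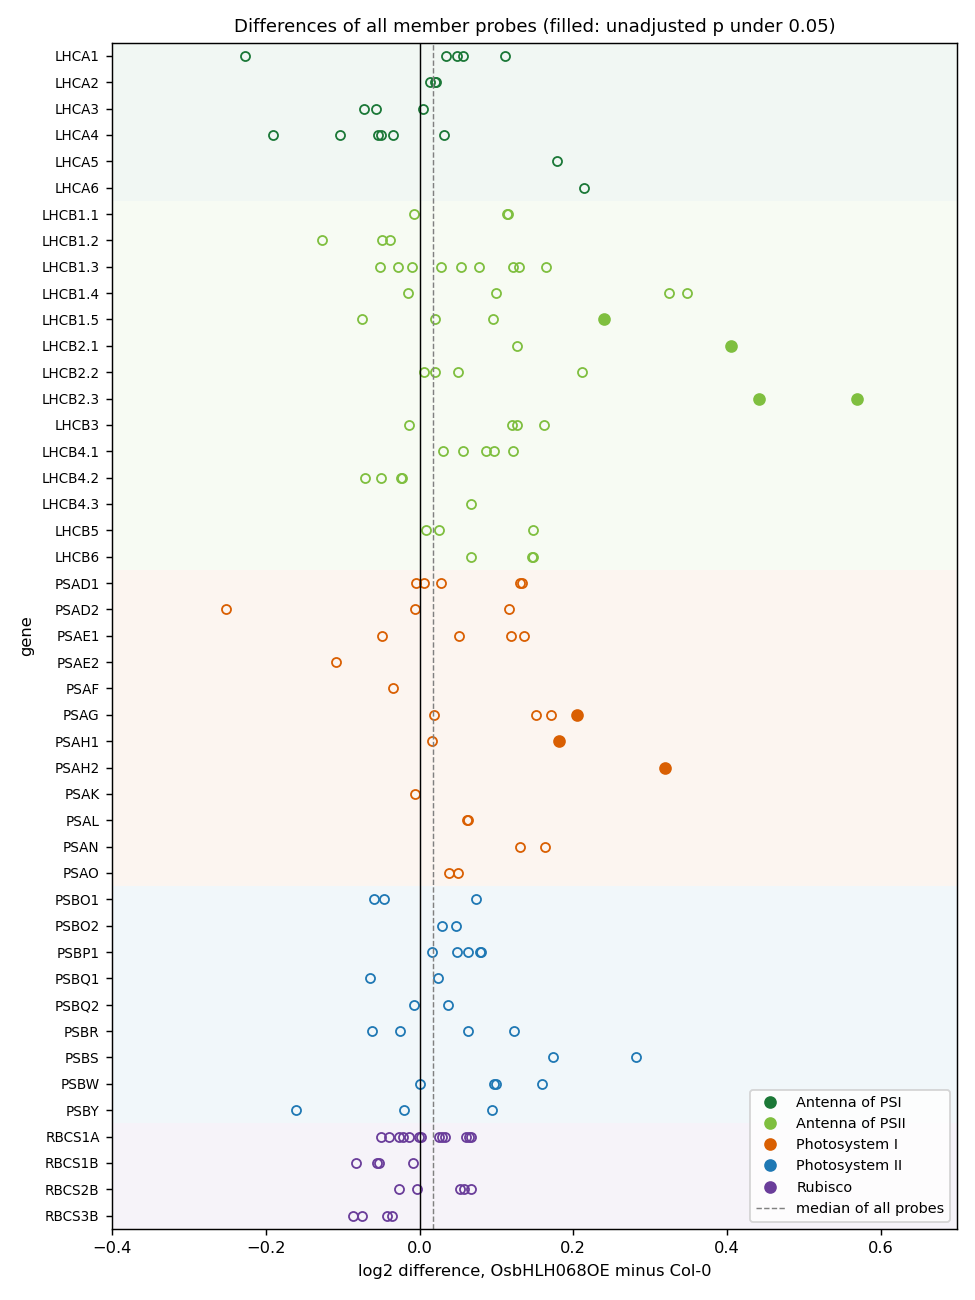
Log2 difference (OsbHLH068OE minus Col-0) on the horizontal axis for each of the 151 probes, with 1 row per gene and colors for the groups. Filled points are the 7 probes with an unadjusted P under 0.05, all above 0 and led by *LHCB2.3*, and the 26 Rubisco probes stay between −0.09 and 0.07.

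How these medians stood against the other probes depended on how the arrays were put on a common scale. Quantile normalization, used for the deposited values, gives every array the same set of values, and 101 of the 389 probes with a mean signal of 16 or more (26%) belonged to the photosynthesis genes. With each array set instead to its own 75th percentile, 147 of the 151 probes were above 0, the median was 0.17 and 24 probes had an unadjusted P under 0.05, all of them higher in OsbHLH068OE (15.9%, against 20.4% of all probes in either direction). Under that scaling the median over all probes was 0.06. The other 288 probes of such brightness, which belong to other genes, had 256 above 0 and a median of 0.16, so this displacement was common to bright probes. Cyclic loess gave 118 of 151 above 0 with a median of 0.06, and values with no scaling between arrays gave 89 of 151 with a median of 0.02, beside −0.09 over all probes. The Rubisco median, −0.01 in the deposited values, was 0.15 at the 75th percentile, 0.03 with cyclic loess and 0.00 with no scaling. No probe of the photosynthesis genes had an adjusted P under 0.05 in any of these 5 scalings.

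**Figure D2:**
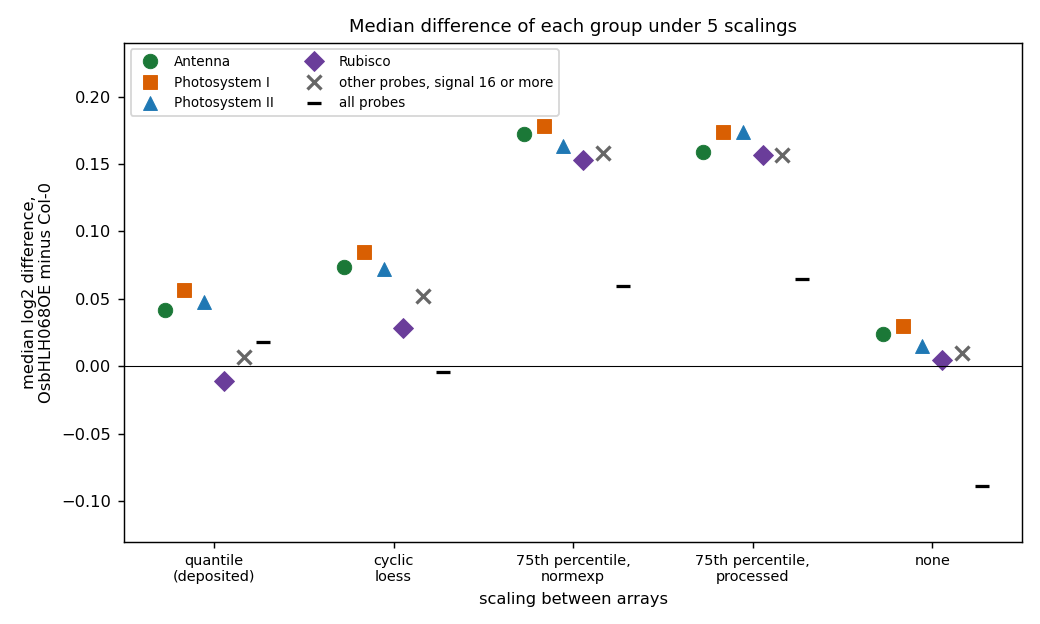
Median log2 difference (vertical axis, OsbHLH068OE minus Col-0) of the antenna, photosystem I, photosystem II and Rubisco probes, of the 288 other probes with a mean signal of 16 or more and of all probes under 5 scalings. At the 75th percentile the 4 groups and the other bright probes sit together at 0.15 to 0.18, and in the deposited values the groups lie between −0.01 and 0.06.

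The antenna of photosystem II held the greatest differences among the 45 genes, in *LHCB2*. LHCB1, LHCB2 and LHCB3 form the trimers of LHCII, the major antenna, and phosphorylation of LHCB2 is a step in state transitions, by which LHCII moves between the photosystems. All 8 probes of the 3 *LHCB2* genes were above 0, with a median of 0.17 (0.06 to 0.21 under the other scalings, where 6 to 8 of the 8 were above 0). Which *LHCB2* copy a probe reads was not checked, so a probe named for 1 copy may also read another. *LHCB2.3* (AT3G27690) read 15.20, 15.34 and 15.14 in the OsbHLH068OE arrays, against 14.50, 14.57 and 14.89 in the Col-0 arrays. Its second probe read 16.81, 16.75 and 16.65 in OsbHLH068OE, against 16.09, 16.34 and 16.44 in Col-0. On both probes each OsbHLH068OE array was above each Col-0 array, with differences of 0.57 ± 0.13 (SE, 1.48-fold, adjusted P = 0.115) and 0.44 ± 0.11 (1.36-fold, adjusted P = 0.135). The differences were 0.70 and 0.71 on the slide of replicate 1 and 0.50 and 0.31 on the slide of replicates 2 and 3.

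*LHCB2.1* (AT2G05100) read 12.82, 12.69 and 12.80 in OsbHLH068OE, against 12.50, 12.31 and 12.27 in Col-0, a difference of 0.41 ± 0.10 (SE, adjusted P = 0.119) with no overlap of the groups. The other probe of *LHCB2.1* differed by 0.13 and its groups overlapped. The first probe passed the threshold under 4 of the alternatives tried, with an adjusted P of at most 0.0477, and the first probe of *LHCB2.3* under 1 of them, with an adjusted P of 0.0446. *LHCB2.2* (AT2G05070) lies next to *LHCB2.1* with no gene between them and held the probe nearest to 0 in this antenna. That probe read 17.55, 17.59 and 17.64 in OsbHLH068OE, against 17.55, 17.62 and 17.59 in Col-0, and its other 3 probes differed by 0.02, 0.05 and 0.21. The 95% interval of the last reached 0.47.

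*LHCB1* had 23 probes over 5 genes with a median of 0.05, 14 above 0. *LHCB1.1*, *LHCB1.2* and *LHCB1.3* are direct neighbors, as are *LHCB1.4* and *LHCB1.5*, and these copies are nearly identical in coding sequence, so a probe named for 1 copy may also read another. The letters of the probes were not analysed here. A probe of *LHCB1.5* (AT2G34420) read 14.60, 14.43 and 14.44 in OsbHLH068OE, against 14.19, 14.20 and 14.36 in Col-0. The groups did not overlap and differed by 0.24 ± 0.09 (SE, adjusted P = 0.234), while its other 3 probes differed by −0.08, 0.02 and 0.10. *LHCB1.4* (AT2G34430) had a similar split, with 0.35 and 0.32 on 2 dim probes whose groups overlapped (adjusted P = 0.392 and 0.382) and 0.10 and −0.01 on 2 bright ones. The 3 probes of *LHCB1.2* (AT1G29910) were between −0.13 and −0.04.

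The remaining antenna genes of photosystem II had differences between −0.07 and 0.16. LHCB4, LHCB5 and LHCB6, also known as CP29, CP26 and CP24, are monomers that connect LHCII with the core. *LHCB6* (AT1G15820) differed by 0.07 to 0.15 over 3 probes, *LHCB5* (AT4G10340) by 0.01 to 0.15 over 3, and *LHCB3* (AT5G54270) by −0.01 to 0.16 over 4. *LHCB4.1* (AT5G01530) had 5 of 5 probes above 0 in the deposited values and *LHCB4.2* (AT3G08940) 0 of 4, but the 10 probes of *LHCB4* reached no adjusted P below 0.504. Neither copy therefore differed beyond the spread between arrays.

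**Figure D3:**
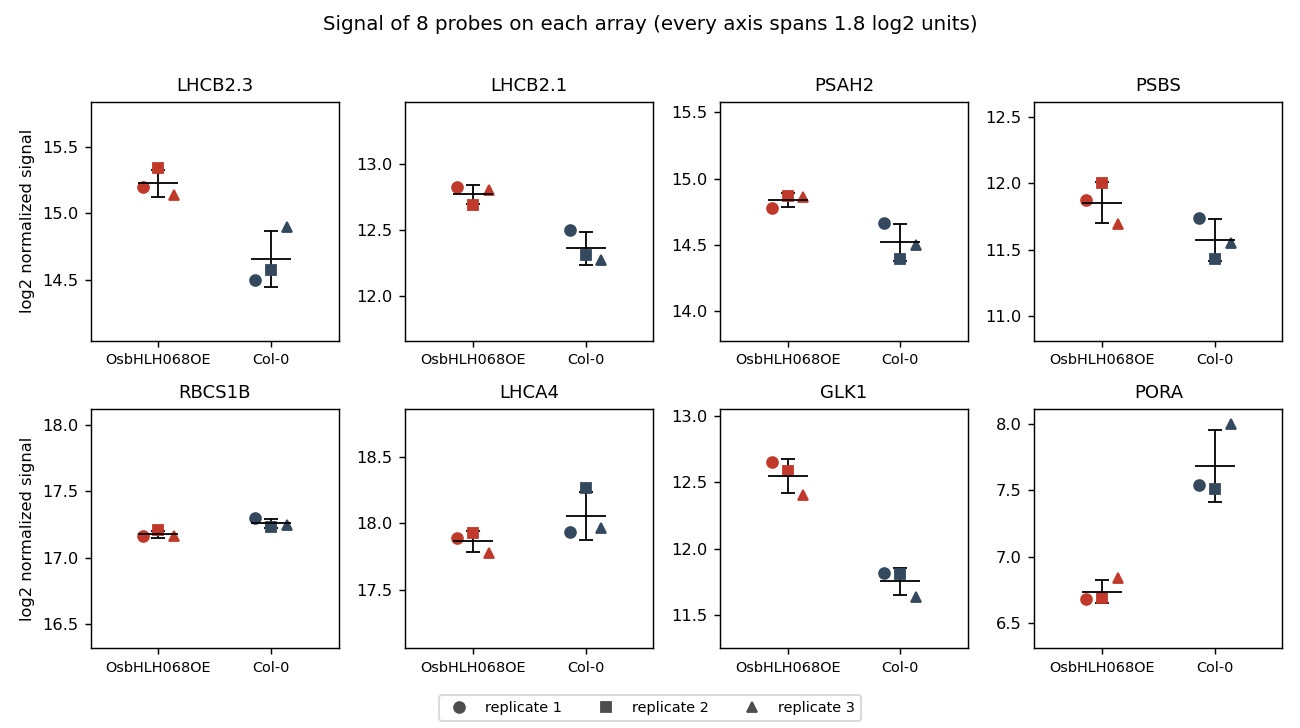
Log2 normalized signal (vertical axes) of 8 probes on each of the 6 arrays, OsbHLH068OE at the left and Col-0 at the right of each panel, with marker shapes for replicates and bars for the mean ± SD (n = 3). *LHCB2.3*, *LHCB2.1*, *PSAH2* and *GLK1* are higher and *PORA*, *LHCA4* and *RBCS1B* lower in OsbHLH068OE with no overlap of the groups, and *PSBS* overlaps. Only the probe of *GLK1* had an adjusted P under 0.05.

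The antenna of photosystem I was closer to balance, with 11 of 19 probes above 0 and a median of 0.01. LHCA1 to LHCA4 make up the belt of LHCI, and LHCA5 and LHCA6 are minor proteins that link photosystem I with the NDH complex of cyclic electron flow. *LHCA5* (AT1G45474) read 13.97, 13.94 and 13.98 in OsbHLH068OE, against 13.90, 13.67 and 13.78 in Col-0. *LHCA6* (AT1G19150) read 15.47, 15.34 and 15.30 in OsbHLH068OE, against 15.38, 14.96 and 15.12 in Col-0. The groups did not overlap for *LHCA5* (0.18 ± 0.09, SE, adjusted P = 0.312) and overlapped for *LHCA6* (0.21 ± 0.13, adjusted P = 0.395).

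The 4 genes of the LHCI belt had no common direction in the deposited values. *LHCA1* (AT3G54890) read 16.57, 16.82 and 16.64 on 1 probe in OsbHLH068OE, against 16.75, 17.09 and 16.88 in Col-0, a difference of −0.23 ± 0.12 (SE, adjusted P = 0.344), while its other 4 probes were between 0.03 and 0.11. Its probes thus went both ways and its groups overlapped on the probe with the lowest value. *LHCA4* (AT3G47470) was below 0 on 5 of 6 probes, and its brightest read 17.89, 17.93 and 17.78 in OsbHLH068OE, against 17.94, 18.26 and 17.96 in Col-0. *LHCA3* (AT1G61520) held the probe nearest to 0, at 12.24, 12.30 and 12.25 in OsbHLH068OE and 12.18, 12.23 and 12.37 in Col-0, and its other 2 differed by −0.06 and −0.07. The 3 probes of *LHCA2* (AT3G61470) were between 0.01 and 0.02.

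Among the subunits of photosystem I, PSAH is the site at which LHCII docks in state transitions, and PSAG lies at the rim where LHCI attaches. *PSAH2* (AT1G52230) read 14.78, 14.87 and 14.86 in OsbHLH068OE, against 14.67, 14.39 and 14.50 in Col-0. *PSAH1* (AT3G16140) read 14.54, 14.61 and 14.62 in OsbHLH068OE, against 14.40, 14.37 and 14.46 in Col-0. Neither probe overlapped between the groups, with differences of 0.32 ± 0.10 (SE, 1.25-fold, adjusted P = 0.169) and 0.18 ± 0.07 (adjusted P = 0.251), and the second probe of *PSAH1* differed by 0.02. The difference of *PSAH2* was 0.11 on the slide of replicate 1 and 0.42 on the slide of replicates 2 and 3.

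*PSAG* (AT1G55670) read 15.24, 15.23 and 15.29 in OsbHLH068OE, against 15.13, 14.94 and 15.07 in Col-0, a difference of 0.20 ± 0.08 (SE, unadjusted P = 0.0499, adjusted P = 0.252). Of its other probes, 2 without overlap differed by 0.17 and 0.15, and the brightest differed by 0.02. *PSAN* (AT5G64040), which helps plastocyanin to reach photosystem I, differed by 0.16 and 0.13. The group medians of the 28 probes, taken on each array relative to the mean of each probe, were 0.02, 0.06 and 0.05 in OsbHLH068OE, against 0.00, −0.07 and −0.03 in Col-0, without overlap. The same medians of the antenna overlapped, at 0.03, 0.02 and 0.01 in OsbHLH068OE and −0.04, −0.04 and 0.01 in Col-0. This too depended on the scaling: at the 75th percentile the antenna medians did not overlap either (0.06, 0.06 and 0.12 in OsbHLH068OE and −0.10, −0.17 and 0.02 in Col-0), and with no scaling those of photosystem I overlapped (−0.12, 0.03 and 0.15 in OsbHLH068OE and 0.03, −0.01 and −0.06 in Col-0).

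Other subunits of photosystem I were nearer to 0 or rested on 1 array. *PSAD1* (AT4G02770), for the subunit at which ferredoxin docks, held the probe nearest to 0, at 17.40, 17.40 and 17.47 in OsbHLH068OE and 17.50, 17.40 and 17.38 in Col-0. Its paralog *PSAD2* (AT1G03130) had the lowest difference of all 151 probes, for which its array values are given too, −0.25 ± 0.21 (SE, adjusted P = 0.542). That probe read 16.19, 16.19 and 15.44 in OsbHLH068OE, against 16.17, 16.18 and 16.23 in Col-0, so only replicate 3 of OsbHLH068OE was low, and the other 2 probes of *PSAD2* differed by −0.01 and 0.12. *PSAE2* (AT2G20260), for the other subunit on the ferredoxin side, differed by −0.11 with no overlap of the groups (adjusted P = 0.451) and *PSAE1* (AT4G28750) by −0.05 to 0.14 over 4 probes. *PSAF*, *PSAK*, *PSAL* and *PSAO* were between −0.03 and 0.06.

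Photosystem II had 0 of 27 probes with an unadjusted P under 0.05 and 0 without overlap between the groups in the deposited values. At the 75th percentile these counts were 5 and 11, all higher in OsbHLH068OE. Under that scaling 20.4% of all probes had an unadjusted P under 0.05, and 7482 were higher and 4761 lower without overlap. Of the 288 other probes with a mean signal of 16 or more, 130 were higher and 1 lower without overlap. Higher values without overlap were thus common among bright probes, and not particular to photosystem II. PSBS senses the acidity of the lumen and switches on the dissipation of excess light as heat. *PSBS* (AT1G44575) read 11.876, 11.999 and 11.691 in OsbHLH068OE, against 11.740, 11.430 and 11.552 in Col-0, and its second probe read 16.41, 16.60 and 16.61 in OsbHLH068OE, against 16.42, 16.37 and 16.31 in Col-0. On each probe 2 OsbHLH068OE arrays were above all Col-0 arrays and 1 was not, with differences of 0.28 ± 0.12 (SE, adjusted P = 0.276) and 0.17 ± 0.09 (adjusted P = 0.341). With its probes averaged before the fit *PSBS* differed by 0.23 at an unadjusted P of 0.0495.

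*PSBW* (AT2G30570), for a small subunit that stabilizes complexes of photosystem II with LHCII, read 15.21, 15.21 and 15.53 on 1 probe in OsbHLH068OE, against 15.12, 15.14 and 15.22 in Col-0. Its brightest probe had the same mean in both groups, with 18.06, 18.04 and 17.98 in OsbHLH068OE and 17.98, 18.06 and 18.04 in Col-0. *PSBR* (AT1G79040), for a small protein near the oxygen-evolving complex, read 17.68, 17.62 and 17.73 in OsbHLH068OE, against 17.42, 17.62 and 17.61 in Col-0, and its other 3 probes were between −0.06 and 0.06. The groups overlapped on all of these probes. The *PSBO*, *PSBP* and *PSBQ* genes encode the extrinsic proteins that shield the manganese cluster where water is split. The 5 probes of *PSBP1* (AT1G06680) were between 0.02 and 0.08, and those of *PSBO1*, *PSBO2*, *PSBQ1* and *PSBQ2* between −0.07 and 0.07. *PSBY* (AT1G67740), for another small subunit, went both ways at −0.16, −0.02 and 0.09.

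In the deposited values the Rubisco genes were the most even of the 4 groups, with 26 probes between −0.09 and 0.07 and a lowest adjusted P of 0.548. All 26 were bright, with a mean signal from 16.89 to 18.13. The median size of their differences, without sign, was 0.04. At a mean signal of 16 or more it was 0.05 for the photosynthesis probes together and 0.07 for other probes. The confidence intervals of all 26 lay between −0.28 and 0.32. *RBCS1B* (AT5G38430) was below 0 on 4 of 4 probes, and the one with the lowest P read 17.16, 17.21 and 17.16 in OsbHLH068OE, against 17.30, 17.23 and 17.25 in Col-0, without overlap (−0.08 ± 0.07, SE, adjusted P = 0.548). *RBCS3B* (AT5G38410), also below 0 on 4 of 4, read 17.81, 17.81 and 17.92 in OsbHLH068OE, against 17.88, 17.96 and 17.96 in Col-0. These directions depended on the scaling, since 10 of the 26 Rubisco probes were above 0 in the deposited values, 13 with no scaling, 19 with cyclic loess and all 26 at the 75th percentile. The evenness depended on it too. At the 75th percentile 15 of the 26 were higher without overlap, as were 34 of 70 antenna, 20 of 28 photosystem I and 11 of 27 photosystem II probes. Of the 288 other bright probes 130 were, and of all 43603 probes 7482. By that count Rubisco was not the most even group.

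*RBCS1A* (AT1G67090) had 7 of 13 probes above 0, from −0.05 to 0.07. Its probe with the lowest P read 17.73, 17.75 and 17.90 in OsbHLH068OE, against 17.74, 17.71 and 17.73 in Col-0, and its probe nearest to 0 read 17.85, 17.83 and 17.83 in OsbHLH068OE, against 17.91, 17.82 and 17.78 in Col-0. On both the groups overlapped. *RBCS2B* (AT5G38420) had 3 of 5 above 0. *RBCS1B*, *RBCS2B* and *RBCS3B* are direct neighbors and near copies, so their probes may share signal.

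The difference, taken with its sign, tended to be higher on dimmer probes in the deposited values. Across the 151 probes the difference had a Pearson correlation of −0.41 and a Spearman correlation of −0.46 with the mean signal, as a description, since probes of a gene and all probes of an array share their source. At a mean signal of 12 to 14, 12 of 12 probes were above 0 (median 0.13), at 14 to 16, 27 of 30 (median 0.12), and at 16 or more, 51 of 101 (median 0.00). Other probes with a signal of 14 to 16 were above 0 in 678 of 1144 cases, with a median of 0.04. Within a gene the same held for 24 of the 38 genes with several probes, in which the dimmest probe had a greater difference than the brightest, by a median of 0.06 over the 38. Among the 10 genes of photosynthetic electron transport and 14 of the Calvin cycle, 13 of the 18 with several probes had this order. At the 75th percentile the medians of the dimmer and the brighter probes of the photosynthesis genes were alike, 0.16 below a signal of 16 and 0.17 at 16 or more.

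**Figure D4:**
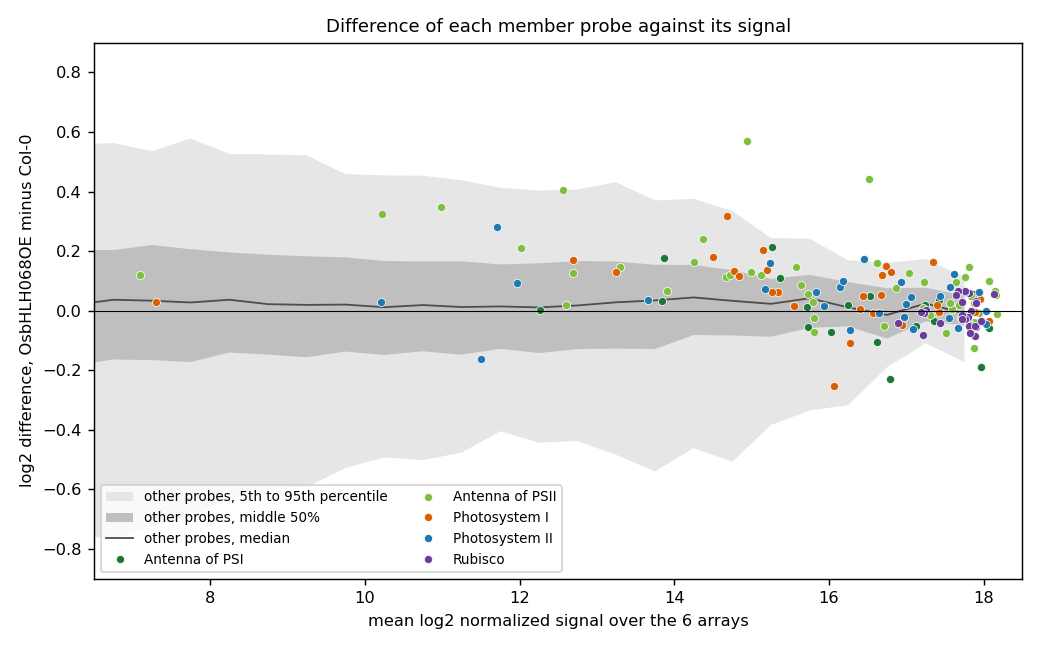
Log2 difference (vertical axis, OsbHLH068OE minus Col-0) against the mean log2 signal over the 6 arrays (horizontal axis) for the 151 probes in color, over the spread of all other probes in gray. Between signals of 14 and 16, 27 of 30 colored points lie above 0, and at 16 or more 51 of 101 do.

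Other genes of photosynthesis, taken from lists by function, had medians above 0. Their probes were dimmer, with a median of the mean signal of 15.4 in the Calvin cycle and 15.8 in electron transport, against 16.9 for the 151. At a signal of 14 to 16 the photosynthesis probes described above had a median of 0.12, with 27 of 30 above 0. The Calvin cycle had 38 of 46 probes above 0 with a median of 0.11, 21 without overlap, all higher in OsbHLH068OE (14.7% of all probes were), and 5 higher and 0 lower at an unadjusted P under 0.05 (10.9% of the list, the same as the share of all probes that were higher). Electron transport had 21 of 27 above 0 with a median of 0.11, 10 without overlap, all higher, and 2 higher and 0 lower (7.41% of the list). The lowest adjusted P was 0.123 and 0.148 in these lists. *HCEF1*, a chloroplast fructose-bisphosphatase, differed by 0.33, *FBA2*, an aldolase, by 0.26, *GAPB*, a subunit of glyceraldehyde-phosphate dehydrogenase, by 0.26, *ATPC1*, a subunit of ATP synthase, by 0.27, *FNR1*, the reductase that ferredoxin feeds, by 0.25, and *FD2*, a leaf ferredoxin, by 0.22 on their probes with the lowest P. Both medians were above 0 in each of the 5 scalings. Among other photosystem and antenna genes, *PSB28* differed by 0.37 and *LHCB7* by 0.24 and 0.23, without overlap, at adjusted P of 0.135, 0.181 and 0.195, and 3 of the 9 probes in this list were higher at an unadjusted P under 0.05 (33.3%, against 10.9% of all probes).

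Of the 11 regulators examined, *GLK1* (AT2G20570), a transcription factor that activates many of the antenna and chlorophyll genes, rose in OsbHLH068OE. It read 12.65, 12.58 and 12.40 in OsbHLH068OE, against 11.82, 11.81 and 11.64 in Col-0, a difference of 0.79 ± 0.10 (SE, 1.73-fold, adjusted P = 0.0483), with 0.83 and 0.77 on the slides. It was the only probe of these lists with an adjusted P under 0.05. That call was lost at the 75th percentile (adjusted P = 0.0543), with cyclic loess (adjusted P = 0.0525) and with no scaling (adjusted P = 0.124). It was also lost on leaving out any array but replicate 1 of Col-0, with an adjusted P of 0.0877 without replicate 3 and 0.230 without replicate 2 of OsbHLH068OE, and over all alternatives the difference was 0.64 to 0.86. Its close relative *GLK2* (AT5G44190), named after its values were seen, read 14.33, 14.27 and 14.25 in OsbHLH068OE, against 13.74, 13.83 and 13.97 in Col-0 (0.44 ± 0.09, SE, adjusted P = 0.10). *PIF1*, also named afterwards, a light-labile repressor of chlorophyll synthesis, differed by 0.48 and 0.47, and *PIF3*, a related factor, by −0.41 and −0.27. In all, 5 of the 15 regulator probes were higher and 3 lower at an unadjusted P under 0.05 (53.3%, against 19.8% of all probes).

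In the chlorophyll pathway the lowest values were in the *POR* genes. *PORA* (AT5G54190) and *PORB* (AT4G27440) encode protochlorophyllide oxidoreductases, and *PORA* transcripts are known to fall in the light. *PORA* read 6.683, 6.692 and 6.836 in OsbHLH068OE, against 7.538, 7.509 and 7.996 in Col-0, on its probe with the lowest P. Its 3 probes differed by −0.94, −1.12 and −0.72 (adjusted P = 0.0693, 0.113 and 0.207), each without overlap, with an adjusted P of 0.0441 for the first when no scaling was used, and the second met the study's rule for a differentially expressed probe. The 5 probes of *PORB* were between −0.51 and −0.29, with values of −0.09 to 0.08 on the slide of replicate 1 and −0.74 to −0.41 on the slide of replicates 2 and 3. The related *PORC*, named after its values were seen, differed by 0.25 and 0.20, and *GUN4*, which activates the chelatase that inserts magnesium, differed by 0.40 (adjusted P = 0.150), all 3 probes without overlap. Of 23 probes in this list, 2 were higher and 6 lower at an unadjusted P under 0.05 (34.8%, against 19.8% of all probes), and 13 were above 0.

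Light-stress genes were above 0 on 7 of 7 probes, with a median of 0.20 (5 of 7 with no scaling). *ELIP1* (AT3G22840), an early light-induced protein that binds pigment under excess light, read 10.45, 10.26 and 9.94 in OsbHLH068OE, against 9.47, 9.38 and 9.23 in Col-0. *ELIP2* (AT4G14690) read 9.43, 9.31 and 9.11 in OsbHLH068OE, against 9.06, 8.05 and 8.28 in Col-0. The differences were 0.85 ± 0.15 (SE, adjusted P = 0.0814) and 0.82 ± 0.27 (adjusted P = 0.187), neither with overlap, and *LIL3.1*, a relative that holds chlorophyll enzymes in the membrane, differed by 0.31.

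Clock genes differed at an unadjusted P as well, and antenna genes are known to cycle over the day. Of 8 probes for evening genes, 5 were lower and 2 higher at an unadjusted P under 0.05 (87.5%, against 19.8% of all probes), with *LUX* at −0.66, −0.53 and −0.51, *ELF4* at −0.58 and *GI* at 0.46 and 0.33. The lowest adjusted P was 0.0557, for *LUX*. Of 7 probes for morning genes, 2 were higher and 0 lower (28.6%), with *LHY* at 0.33 and *CCA1* at 0.19 to 0.23. Genes of chlorophyll breakdown and senescence had 2 of 11 probes above 0, a median of −0.23 and 0 with an unadjusted P under 0.05, with *NYE2* at −0.69 and −0.51 and *PPH* at −0.25. Of these 11 probes, 9 were above background on all arrays and 2 on none. The medians on each array, relative to the mean of each probe, overlapped. They were −0.11, −0.14 and −0.01 in OsbHLH068OE, against −0.24, 0.33 and 0.14 in Col-0. Flower genes were above background on all 7 probes, with *SEP3* at −0.91 and −0.78 and *AG* at 0.55 and 0.53, and their summed linear signal, in units of 1000, was 4.82 to 6.93 in OsbHLH068OE and 6.11 to 8.94 in Col-0. For the leaf genes that sum was 1159 to 1294 in OsbHLH068OE and 1197 to 1253 in Col-0, and 11 of 22 probes were above 0, with a median of 0.03 and differences between −0.23 and 0.43, the highest for *GLDP1*, of photorespiration. The part of any of these lists in the values of the antenna, photosystem and Rubisco genes was not tested.

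**Figure D5:**
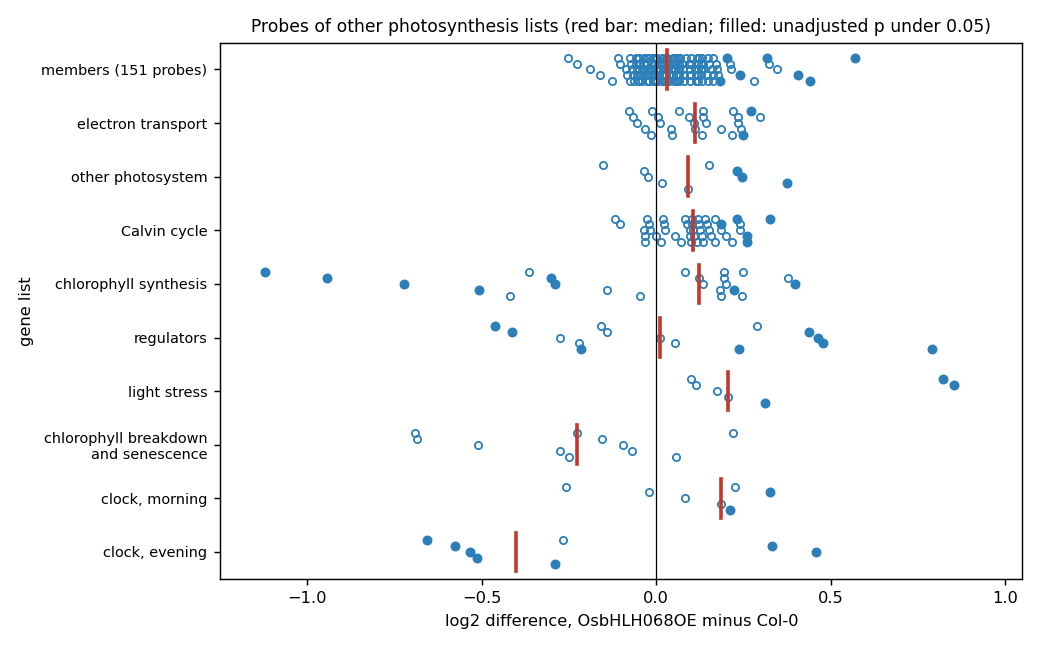
Log2 difference (horizontal axis, OsbHLH068OE minus Col-0) of each probe in 9 lists of other genes, below the 151 probes of the photosystem, antenna and Rubisco genes, with red bars for the medians and filled points for an unadjusted P under 0.05. The 151 probes crowd around a median of 0.03, while *PORA* reaches −1.12 and *ELIP1* 0.85.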

How the data were processed

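Expression was measured on Agilent *Arabidopsis* V4 arrays with Cy3-labeled cRNA, 1 sample an array. The intensity values that the authors deposited are spot and background signals read by Feature Extraction 10.7.1.1. The log2 values that the authors deposited come from limma (normexp background correction, quantile normalization) and were used as given. Running these steps on the median signals with an offset of 0 differed from them by at most 5.00e-09. Probe values whose every spot was marked as an outlier were left out, which touched no probe of the 45 genes. Transcript accessions were matched to RefSeq gene names of the TAIR10.1 assembly, and 34358 of 43603 probes received a gene. Because the file headers name an older build, no coordinate is given, and probe and promoter sequences were not analysed here.

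Differences were fitted over all 43603 probes with lmFit and eBayes (limma 3.58.1, R 4.3.3, version 1.17.8 of data.table, 2.03 prior degrees of freedom) and adjusted by Benjamini-Hochberg. The fit was run on simulated arrays with independent noise and with changes larger than any difference of the 45 genes. That run therefore does not show how the fit handles differences of the size seen here or shifts of whole arrays. The number of arrays limits the precision, and P-values measure the spread between these 3 arrays a group. The 45 genes, though listed by locus and not by value, and all other lists were chosen with earlier results of these data known. Array values are given for the up to 3 genes of each group with the lowest P and for the one nearest to 0, on the probe concerned, with the other probes as differences. From each other list, genes with an adjusted P under 0.05 are named, or otherwise the up to 3 with the lowest P. The alternatives were other background corrections, scalings, probe filters, priors, blocks and probe rules, the t-test of the methods, and leaving out each array.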

Additional observations from a re-analysis of the deposited data

How the results depend on the processing

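No probe of the 45 genes met the rule for a differentially expressed probe under any alternative. With an adjusted P, 1 probe (*LHCB2.1*) passed with a normexp offset of 50 and with no background correction, 2 (*LHCB2.1* and *LHCB2.3*) with an intensity trend and robust prior, and 0 or 1 on leaving out 1 array, the 1 being *LHCB2.1* without replicate 1 of Col-0. With the offset, without background correction and with the intensity trend, many more of all 43603 probes passed too, as counted below. The count at an unadjusted P under 0.05, 7 in the deposited values, was 13 with the offset of 50, with no background correction and with the intensity trend, 25 with the processed signal and 24 with normexp values at the 75th percentile, 2 with no scaling, 12 with the methods' t-test (2 of them lower), 4 with 1 value per gene, and 3 to 10 on leaving out 1 array (0 to 1 of them lower). At the 75th percentile that is 16.6% of the photosynthesis probes with the processed signal, against 19.8% of all probes. With normexp values it is 15.9% against 20.4%, and with no scaling 1.32% against 16.4%. For the other alternatives in this list the share of all probes is not given. Their counts alone therefore do not show a change particular to the photosynthesis genes. At the 75th percentile of the processed signal, 87 probes had no overlap between the groups, all higher, against 21 in the deposited values, while 143 of the 288 other bright probes were higher and 2 lower without overlap, and 7101 of all 43603 probes higher and 5249 lower.

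With the processed signal at the 75th percentile the medians were 0.16 for all genes, 0.16 for the antenna, 0.17 for photosystem I, 0.17 for photosystem II and 0.16 for Rubisco, and with normexp values at the 75th percentile 0.17, 0.17, 0.18, 0.16 and 0.15. Cyclic loess gave 0.065 for all genes, 0.074 for the antenna, 0.072 for photosystem II and 0.029 for Rubisco, and no scaling gave 0.018 for all genes, 0.024 for the antenna, 0.030 for photosystem I, 0.015 for photosystem II and 0.0046 for Rubisco. With 1 value per gene they were 0.057 for all genes, 0.071 for the antenna and 0.024 for photosystem II. On the slide of replicate 1, an alternative chosen after seeing the data, photosystem I had 0.025 and photosystem II 0.032, and on the slide of replicates 2 and 3 photosystem I had 0.10 and Rubisco 0.0024. On leaving out 1 array the medians ran from 0.021 to 0.050 for all genes, 0.031 to 0.062 for the antenna, 0.033 to 0.094 for photosystem I, 0.035 to 0.076 for photosystem II and −0.025 to 0.00087 for Rubisco. The cause of these shifts was not tested.

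Same-numbered arrays of the groups had correlations of 0.26, 0.10 and 0.01 between their deviations from the group means. Replicate 1 of either group had correlations of −0.22 to −0.12 with replicates 2 and 3 of the other group. Replicates 2 and 3 had correlations of 0.01 to 0.13 across the groups. The signs thus followed the 2 slides, and the main fit has no term for the slide. The labels do not say that a number marks a shared batch, so the numbers were not taken as pairs. A fit with the replicate number as a block gave 5 probes of the 45 genes with an unadjusted P under 0.05 (1 of them lower). The share of all probes at that threshold in this fit is not given. With an adjusted P under 0.05 it gave 0 probes of the 45 genes and 1 of all 43603, against 230 without the block. Over all probes that count was 1564 with the offset of 50, 1520 with no background correction, 1347 with dim probes left out, 1388 with the intensity trend, 1018 with the slide as a block, 0 with the t-test and 1 to 2685 on leaving out 1 array, so which photosynthesis probes pass at 3 arrays a group depends on such choices.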
